A study of Mus musculus with 12 samples.

Results

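The genes described here encode the ligands and receptors of axon guidance: semaphorins, plexins, neuropilins, netrins, Unc5 receptors, Slits, Robos, ephrins and Eph receptors. They were taken by gene symbol, and a member had to average at least 1 CPM (counts scaled to library size) over 12 mouse hippocampus libraries. The symbols matched 70 genes, of which 67 were members, out of 35812 gene identifiers in the count table. Dcc, Efna4 and Epha1 fell below the minimum, at 0.202, 0.36 and 0.698 CPM, and Ntn5 and Epha2 were the members nearest to it, at 1.21 and 1.85 CPM. All 67 members also passed the filter on low counts that preceded the test.

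Each library was made from the hippocampus of 1 male C57BL/6 mouse, 8 weeks old, and there were 3 mice in each of 4 groups. F0_Dep mice had been brought to a depressive state by stress, and F0_Ctl mice were normal. F1_Dep mice were sons of such depressed males, and F1_Ctl mice were sons of normal males. No genotype, transgene or drug is named for any group, and the sources used here do not say how the stress was applied. The labels name no father or litter, so sons within a group may share one. Only the labels of F1_Ctl carry sequencing lane names, so any effect of the sequencing run on F1_Ctl and the effect of belonging to that group cannot be told apart.

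Guidance cues steer growing axons by attracting or repelling the growth cone. Secreted class 3 semaphorins bind neuropilins, which signal through A-type plexins, while most membrane semaphorins bind plexins directly. Slits act on Robo receptors, netrins on Dcc and the repulsive Unc5 receptors, and ephrins, which are held at the cell surface, on Eph receptor kinases in contact with the neighbouring cell. In the adult hippocampus many of these proteins remain at synapses, dendritic spines and mossy fibre terminals.

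The levels of members and pathway genes below are CPM after TMM scaling, and summed or single marker levels are CPM by library totals alone. Libraries held between 18277208 and 23083678 counts. Markers of hippocampal pyramidal neurons were present in every library, with a summed level of 966 to 1342 CPM over 9 genes. That sum hid opposite differences between single markers. In F0_Ctl 1, 2 and 3, Wfs1 had 417, 215 and 64.4 CPM, and Fibcd1, Pou3f1 and Spink8 fell in the same order. Cpne4 had 54.9, 86.6 and 243 CPM, and Hs3st4, Bok and Grik4 were likewise highest in F0_Ctl 3. Libraries also stood apart in other marker lists. Over 12 choroid plexus genes, F0_Ctl 3, F1_Ctl 3 and all 3 F1_Dep libraries summed to between 3795 and 12069 CPM, and the other 7 libraries to between 230.5 and 1051, with Clic6 and Cldn2 each at 0 in 1 library. Over 11 striatal genes, F1_Dep 1 summed to 1580 CPM and the other 11 libraries to between 198 and 384. Counts of called members are therefore also given without F0_Ctl 3, F1_Ctl 3 and F1_Dep 1.

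Levels between genes were compared per transcript length, as FPKM averaged over the 9 libraries of F0_Dep, F0_Ctl and F1_Dep. An EphA receptor kinase, Epha4, which binds ephrins of both classes, had the highest mean, 80 FPKM, and Epha7 followed at 76.8 FPKM. Their ranges over the libraries overlapped. Sema7a, a semaphorin anchored in the membrane by a lipid, averaged 45.8 FPKM. The leading Slit was Slit1 at 43 FPKM, the leading ephrin Efnb3 at 40.6 FPKM and the leading Unc5 receptor Unc5a at 34.4 FPKM. Other families peaked lower. Plxna1 led the plexins at 21.7 FPKM, Ephb6 the EphB receptors at 18.2 FPKM and Ntng2 the netrin group at 16.4 FPKM. Robo2, Nrp1 and Sema3e led their families at 15.1, 15 and 13.9 FPKM. The secreted ligands of the netrin family, Ntn1, Ntn4 and Ntn5, lay between 0.659 and 1.52 FPKM, and the lowest mean of any member was 0.403 FPKM, for Epha2.

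**Figure D1:**
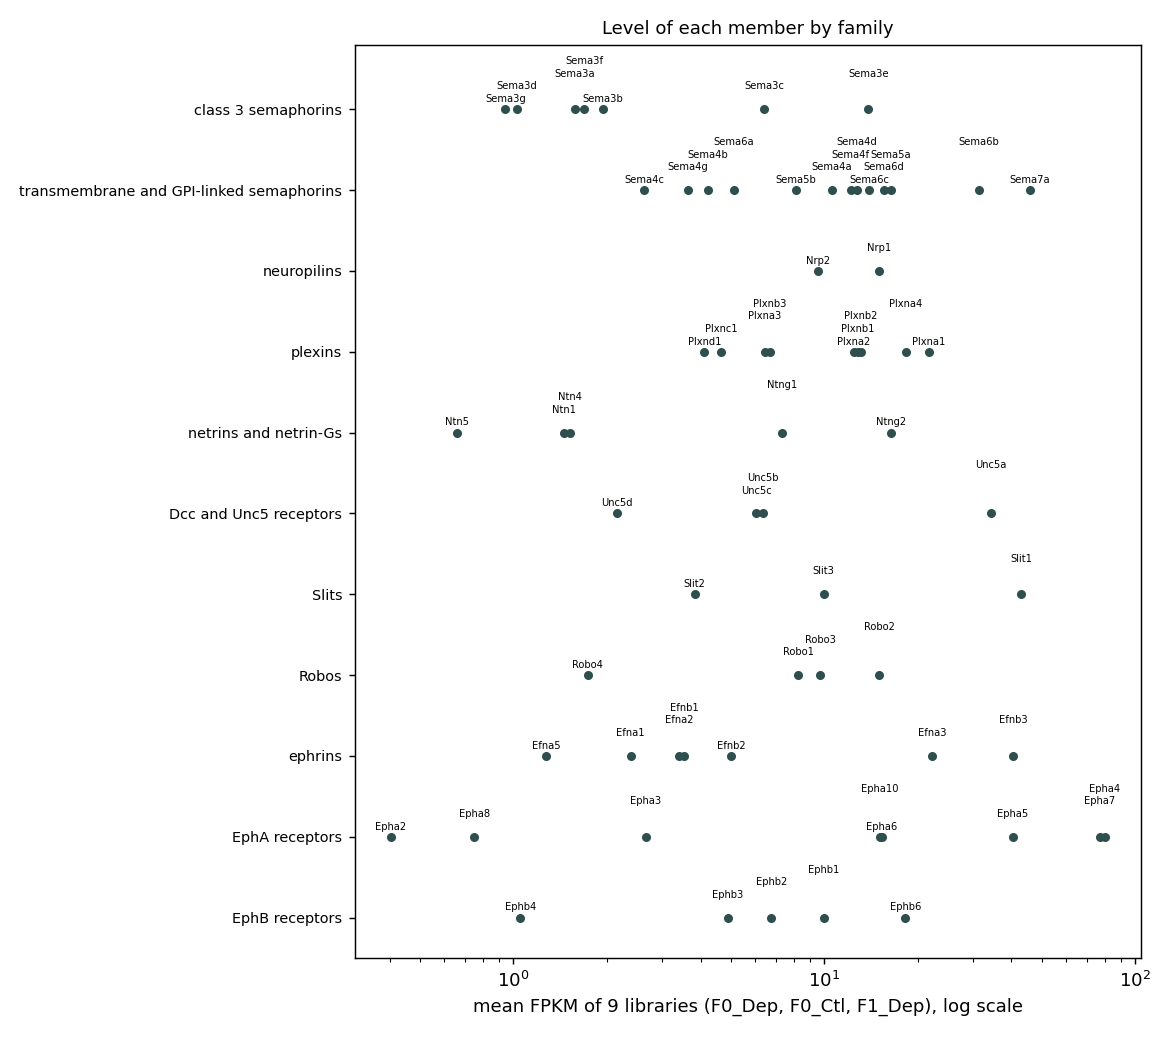
Mean FPKM of each of the 67 members over 9 libraries (log axis), with 1 row per family and 1 point per gene. Epha4 and Epha7 lie farthest right, at 80.0 and 76.8 FPKM, and 5 of the 7 class 3 semaphorins lie below 2 FPKM.

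Over the 12 libraries the median distance between a member's highest and lowest library was 1.10 on the log2 CPM scale, where the median over all 16163 genes tested was 0.82. At the low end, Sema4g and Efnb3 spanned 0.44 and 0.45. Sema3b spanned 6.05, more than any other member, and Ntn5, Epha8 and Sema3f spanned 3.15, 3.06 and 2.98. F0_Dep 3 held the highest value of 12 members and F1_Dep 1 of 11. F0_Ctl 1 held the lowest value of 18 members, F1_Ctl 3 of 17 and F1_Dep 1 of 15.

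The first comparison asked what differed between stressed and normal males. In F0_Dep, 2 of 67 members passed edgeR's quasi-likelihood F-test at a Benjamini-Hochberg adjusted p under 0.05 over all 16163 genes tested (the edgeR adjusted p below), both of them receptors that were higher, Unc5d and Nrp1. Among all genes the share called was 0.495%, 0.346% higher and 0.148% lower. The members' log2 fold changes had a median of 0.13, and 43 of 67 were above 0, against a median of -0.03 and 45.4% above 0 for all genes. All 3 F0_Dep libraries lay above all 3 F0_Ctl libraries for 19 members (28.4%) and below them for 2 (2.99%), where 13.7% of all genes lay above and 13.7% below. At an unadjusted p under 0.05, 17 members were higher and 5 lower, where the shares of all genes were 10.3% and 9.36%. In bulk tissue, fewer cells of a type and less RNA per cell cannot be told apart.

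Unc5d, a receptor of the repulsive Unc5 family (ENSMUSG00000063626, chromosome 8, 28646717 to 29219636 on the minus strand of GRCm38), had 27.3, 29.1 and 34.6 CPM in F0_Dep libraries, against 17.1, 18.3 and 18.4 in F0_Ctl libraries. Every F0_Dep library was above every F0_Ctl library. The means were 30.3 ± 3.79 and 17.9 ± 0.717 CPM (SD, n = 3 each), a log2 fold change of 0.76 ± 0.12 (SE; edgeR adjusted p = 0.0306). In the FPKM values the log2 fold change was 0.77 on the log2(FPKM + 1) scale, with a limma adjusted p of 0.00908. The edgeR call was lost when 1 of 5 libraries was left out, with an edgeR adjusted p of 0.157 without F0_Dep 2, 0.182 without F0_Dep 3, 0.0896 without F0_Ctl 1, 0.0609 without F1_Dep 2 and 0.0687 without F1_Dep 3. The call was also lost when only F0_Dep and F0_Ctl were fitted, and with replicate number as a block. Over those and the other alternatives the log2 fold change lay between 0.65 and 1.07.

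Nrp1, the neuropilin that binds Sema3a and also vascular endothelial growth factor (ENSMUSG00000025810, chromosome 8, 128358604 to 128503363 on the plus strand), had 70.9, 86.5 and 91 CPM in F0_Dep libraries, against 39.2, 51.4 and 44.4 in F0_Ctl libraries. These groups did not overlap either. Mean levels were 82.8 ± 10.6 and 45 ± 6.14 CPM (SD, n = 3 each), and the log2 fold change was 0.88 ± 0.17 (SE; edgeR adjusted p = 0.0483). The limma fit of the FPKM values gave 0.92, with an adjusted p of 0.00916. Leaving out 1 library moved the edgeR adjusted p to 0.0667, 0.206 and 0.237 (F0_Dep 1, 2 and 3), 0.142 and 0.0763 (F0_Ctl 1 and 3), 0.0659 (F1_Ctl 2), and 0.0629, 0.0844 and 0.0914 (F1_Dep 1, 2 and 3). The call was also lost with library totals alone, with only F0_Dep and F0_Ctl fitted, and with replicate number as a block. The log2 fold change itself stayed between 0.81 and 0.99. Endothelial cells also express Nrp1. Over 6 endothelial markers the summed level was 164 to 183 CPM in F0_Dep libraries, against 202 to 214 CPM in F0_Ctl libraries, without overlap and lower in F0_Dep. Of the 6, 5 had a log2 fold change below 0, with a list median of -0.31, and none passed or was at 0 in any library. The part of these cells in the Nrp1 result was not tested.

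Without F0_Ctl 3, F1_Ctl 3 and F1_Dep 1, 12 members passed in this comparison, 10 of them higher and 2 lower, beside 512 of all genes. The filter on low counts was repeated in that fit, so the 512 are not a share of the 16163 genes of the main fit. The 10 were the receptors Unc5d, Unc5c, Nrp1, Nrp2, Plxna4, Robo1, Epha4 and Ephb2 and the ligands Slit1 and Slit2. The 2 lower were the ligand Sema3a and the receptor Ephb3. Their log2 fold changes in that fit ran from 0.41 for Epha4 to 1.28 for Slit2, and were -1.24 for Sema3a and -0.71 for Ephb3. With F0_Ctl 3 left out, most pyramidal neuron markers separated these groups. Cpne4 had 54.9 and 86.6 CPM in F0_Ctl 1 and 2, against 149 to 225 in F0_Dep, and Grik4, Bok and Hs3st4 were also higher in F0_Dep. Wfs1 had 417 and 215 CPM, against 91.9 to 179, and Fibcd1 and Pou3f1 were also lower. Neurod6 and Spink8 overlapped. Thalamic sums were also separate, at 115 to 186 CPM in F0_Dep against 56.1 and 74.2 CPM in F0_Ctl 1 and 2. Meningeal sums were as well, at 58.2 to 76.7 CPM against 40.8 and 26.5 CPM. Endothelial, astrocyte and microglia sums in F0_Dep lay below those of F0_Ctl 1 and 2. The part of these cells in the 12 calls was not tested.

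**Figure D2:**
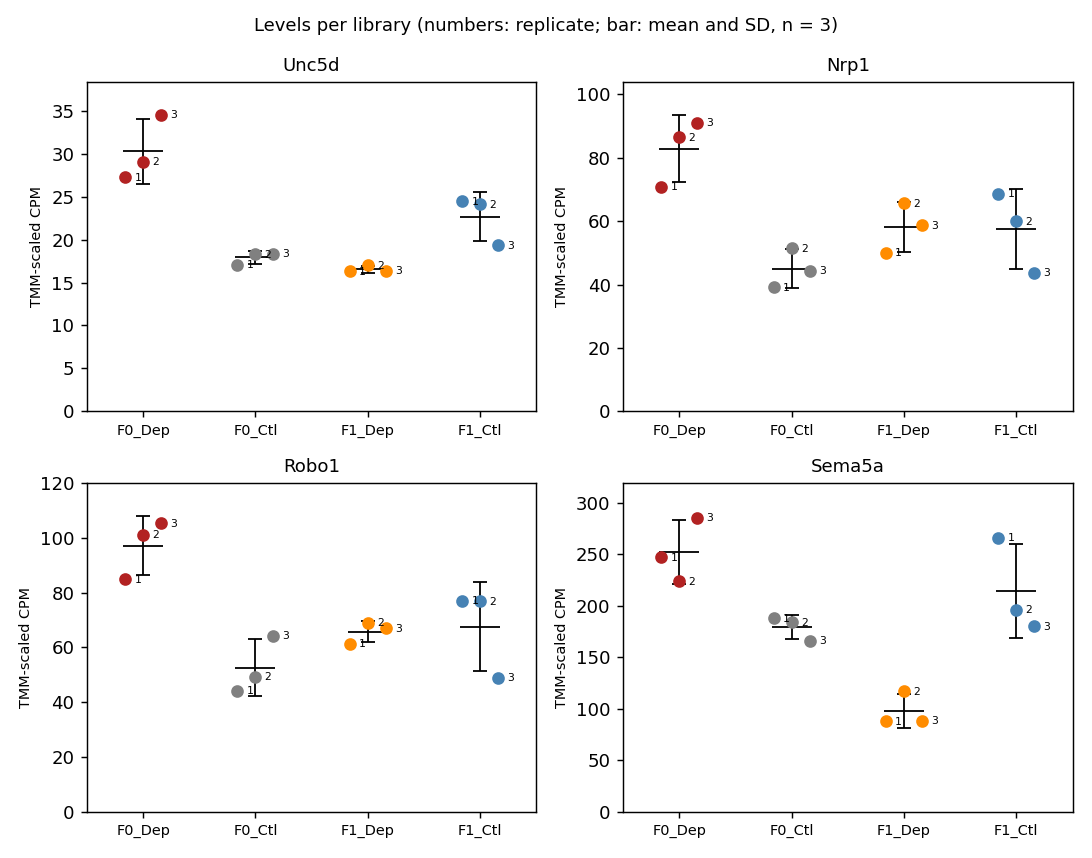
TMM-scaled CPM of Unc5d, Nrp1, Robo1 and Sema5a in each library, with 1 point per mouse and the replicate number beside it; lines and whiskers give the mean and SD of 3 mice. Unc5d, Nrp1 and Robo1 are higher in all F0_Dep than in all F0_Ctl mice, and Sema5a is lower in all F1_Dep than in all F1_Ctl mice.

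The second comparison asked what differed between sons of depressed and of normal males. In F1_Dep, 1 of 67 members passed, the membrane semaphorin Sema5a, which was lower; among all genes 0.167% were called, 0.0433% higher and 0.124% lower. The members' median log2 fold change was 0.08 with 39 of 67 above 0, against -0.02 and 46.9% for all genes. With scaling to library totals alone the median of all genes was 0.03. Non-overlapping groups put 12 members (17.9%) higher and 7 (10.4%) lower, where all genes gave 8.71% and 10.3%. At an unadjusted p under 0.05, 10 members were higher and 9 lower, Sema5a included, where the shares of all genes were 6.32% and 8.53%.

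Sema5a is a transmembrane semaphorin with thrombospondin repeats, whose known receptors include A-type plexins and Plxnb3 (ENSMUSG00000022231, chromosome 15, 32244810 to 32696341 on the plus strand). It had 88.1, 117 and 88.5 CPM in F1_Dep libraries, against 266, 196 and 180.0 in F1_Ctl libraries. Every F1_Dep library was below every F1_Ctl library, and also below every F0 library. The means were 97.9 ± 16.6 and 214 ± 45.7 CPM (SD, n = 3 each), with a log2 fold change of -1.13 ± 0.16 (SE; edgeR adjusted p = 0.0337). The F0 libraries gave 247, 224 and 286 CPM in F0_Dep libraries, against 188, 184 and 166 in F0_Ctl libraries, with no overlap, and a log2 fold change of 0.49 ± 0.16 (SE; edgeR adjusted p = 0.131), which did not pass. The F1 call was lost without F1_Dep 1 or 3 (edgeR adjusted p 0.0748 and 0.137), F1_Ctl 2 (0.110) or F0_Dep 1, 2 or 3 (0.0813, 0.0691 and 0.0654). It was also lost when only F1_Dep and F1_Ctl were fitted, and with replicate number as a block. With F0_Ctl 3, F1_Ctl 3 and F1_Dep 1 left out together, the log2 fold change was -1.17 and the edgeR adjusted p 0.0092.

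Markers of dentate granule cells moved with Sema5a. All 10 had a log2 fold change below 0 in F1_Dep, with a median of -1.35, and 2 passed the test. Their summed level was 165 to 473 CPM in F1_Dep libraries, against 680 to 937 CPM in F1_Ctl libraries, and no marker was at 0 in any library. F1_Dep 1 had the lowest sum and F1_Dep 2 the highest of the 3, and Sema5a was likewise highest in F1_Dep 2. F1_Dep 1 and F1_Dep 3 had nearly equal Sema5a, at 88.1 and 88.5 CPM, while their summed marker levels were 165 and 363 CPM. The part of these cells in the Sema5a result was not tested.

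The stretch of 247 bases just before the annotated start of Sema5a is shown because this gene was called in the offspring. Its change in F1 also differed from its change in F0. It lies at chr15:32244563-32244809 on the plus strand of GRCm38 and was taken from RefSeq promoters of GRCm38.p6. Capitals mark GGGCGG, the GC box bound by Sp1, on either strand.
Sema5a: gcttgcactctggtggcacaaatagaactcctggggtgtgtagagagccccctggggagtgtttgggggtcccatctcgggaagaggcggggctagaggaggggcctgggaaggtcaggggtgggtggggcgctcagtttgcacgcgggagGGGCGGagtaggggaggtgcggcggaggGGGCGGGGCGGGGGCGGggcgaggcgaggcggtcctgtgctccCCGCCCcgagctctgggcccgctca
It holds 5 GC boxes, 2 of which overlap by 1 base, 17 CpG dinucleotides and no TGTTCT.

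RefSeq promoters were matched by symbol for 58 members, in 74 windows of 250 bases before a start. GGGCGG on either strand was in 52 windows (70.3%), where 32.7% of 32851 windows of all genes held it. The members' windows also held more CpG, a median of 16 dinucleotides against 6 in all windows. The glucocorticoid receptor half-site TGTTCT, searched because that receptor mediates stress hormone signals, was in 7 windows (9.46%), against 16.1% of all. The full element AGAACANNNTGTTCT, which contains the half-site, was in 0 windows of members and 3 of all genes. A match to these letters describes the sequence and is not evidence of binding.

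The change in F1 was then set against the change in F0 in the same fit. Of 67 members, 2 passed this interaction test, where 0.0681% of all genes did. For Sema5a the F1 change minus the F0 change was -1.62 ± 0.23 (SE; edgeR adjusted p = 0.0316) on the log2 scale. Unc5d, which in the offspring had 16.3, 17 and 16.4 CPM in F1_Dep libraries, against 24.5, 24.1 and 19.4 in F1_Ctl libraries, had an F1 change of -0.45 ± 0.12 (SE; edgeR adjusted p = 0.121); the difference between its changes was -1.21 ± 0.17 (SE; edgeR adjusted p = 0.0316). Nrp1 in the offspring had 50.1, 65.7 and 58.7 CPM in F1_Dep libraries, against 68.7, 59.9 and 43.7 in F1_Ctl libraries, groups that overlapped, and its difference was -0.86 ± 0.24 (SE; edgeR adjusted p = 0.153). Both interaction calls were lost in 8 of 12 omissions of 1 library, those of F0_Ctl 1 or 2, any F0_Dep, F1_Ctl 2, and F1_Dep 1 or 3, with edgeR adjusted p-values up to 0.127 for Sema5a and 0.121 for Unc5d. They were also lost with scaling to library totals alone, at 0.0562 and 0.0563, and with replicate number as a block. In the same interaction all 10 dentate granule cell markers were below 0, with a median of -1.43, and 0 passed. The part of these cells in the Unc5d and Sema5a differences was not tested.

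**Figure D3:**
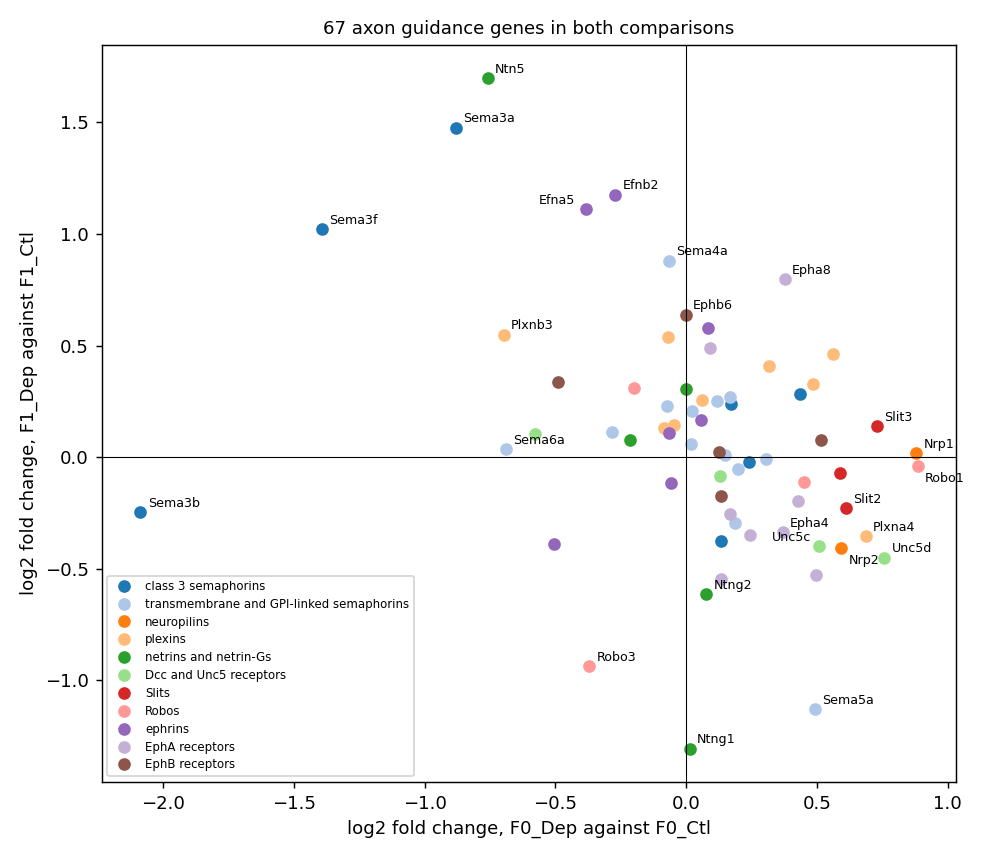
Log2 fold change of each of the 67 members in F0_Dep against F0_Ctl (horizontal) and in F1_Dep against F1_Ctl (vertical), coloured by family. Unc5d and Nrp1 lie at 0.76 and 0.88 on the horizontal axis, and Sema5a at -1.13 on the vertical one.

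Among the 7 class 3 semaphorins none passed, and 4 had a log2 fold change above 0 in F0_Dep against F0_Ctl and 4 in F1_Dep against F1_Ctl. Sema3a, the repellent that binds Nrp1, had 19.2, 8.69 and 10.5 CPM in F1_Dep libraries, against 4.48, 3.63 and 5.64 in F1_Ctl libraries. F1_Dep 1 was highest, and all 3 lay above the F1_Ctl libraries, with a log2 fold change of 1.47 ± 0.40 (SE; edgeR adjusted p = 0.131). In F0 it had 5.0, 3.66 and 4.14 CPM in F0_Dep libraries, against 11.1, 9.13 and 3.36 in F0_Ctl libraries, and the groups overlapped. Sema3f, a ligand of Nrp2, had the smallest p of the family in F0, with 2.06, 1.33 and 1.25 CPM in F0_Dep libraries, against 1.53, 3.9 and 6.76 in F0_Ctl libraries and a log2 fold change of -1.39 ± 0.61 (SE; edgeR adjusted p = 0.236). The offspring gave 10.6, 5.68 and 6.71 CPM in F1_Dep libraries, against 2.15, 1.71 and 7.44 in F1_Ctl libraries, with F1_Ctl 3 as high as the F1_Dep libraries. Sema3f was thus highest in F0_Ctl 3, F1_Ctl 3 and the F1_Dep libraries, those in which choroid plexus markers were high. Of these, F1_Dep 1 had the highest Sema3f but the lowest choroid plexus sum, 3795 CPM, and F1_Ctl 3 the highest sum, 12069 CPM. F1_Dep 1 also had the highest striatal sum, 1580 CPM. The part of choroid plexus or striatal cells in the Sema3f values was not tested. Sema3e, which binds Plxnd1 without a neuropilin, had 87.9, 106 and 91.2 CPM in F0_Dep libraries, against 109, 78.5 and 66.1 in F0_Ctl libraries, and 95.8, 91.2 and 94 CPM in F1_Dep libraries, against 71.7, 94.5 and 71.8 in F1_Ctl libraries; both pairs of groups overlapped.

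Sema3b, named after its values were seen because it varied most, had 1.68, 2.0 and 0.382 CPM in F0_Dep libraries, against 1.12, 1.33 and 14.8 in F0_Ctl libraries. In the offspring it had 6.79, 11.9 and 12 CPM in F1_Dep libraries, against 1.8, 2.97 and 31.6 in F1_Ctl libraries. It was high in F0_Ctl 3, F1_Ctl 3 and the F1_Dep libraries, the same 5 libraries in which the summed level of 12 choroid plexus markers was high. Plxnb3, a receptor of Sema5a also named after its values were seen, had 26.4, 26.9 and 29 CPM in F0_Dep libraries, against 23.7, 46.7 and 62.9 in F0_Ctl libraries, and 67.3, 65.9 and 73 CPM in F1_Dep libraries, against 47.6, 36.8 and 56.5 in F1_Ctl libraries. Plxnb3 was lowest in F0_Ctl 1 and the F0_Dep libraries, and so was the summed level of 9 oligodendrocyte markers. It was to 2912 to 3215 CPM in F0_Dep against 2178 to 6569 CPM in F0_Ctl, and 6183 to 7425 CPM in F1_Dep against 4242 to 7220 CPM in F1_Ctl. The part of either cell type in these values was not tested.

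**Figure D4:**
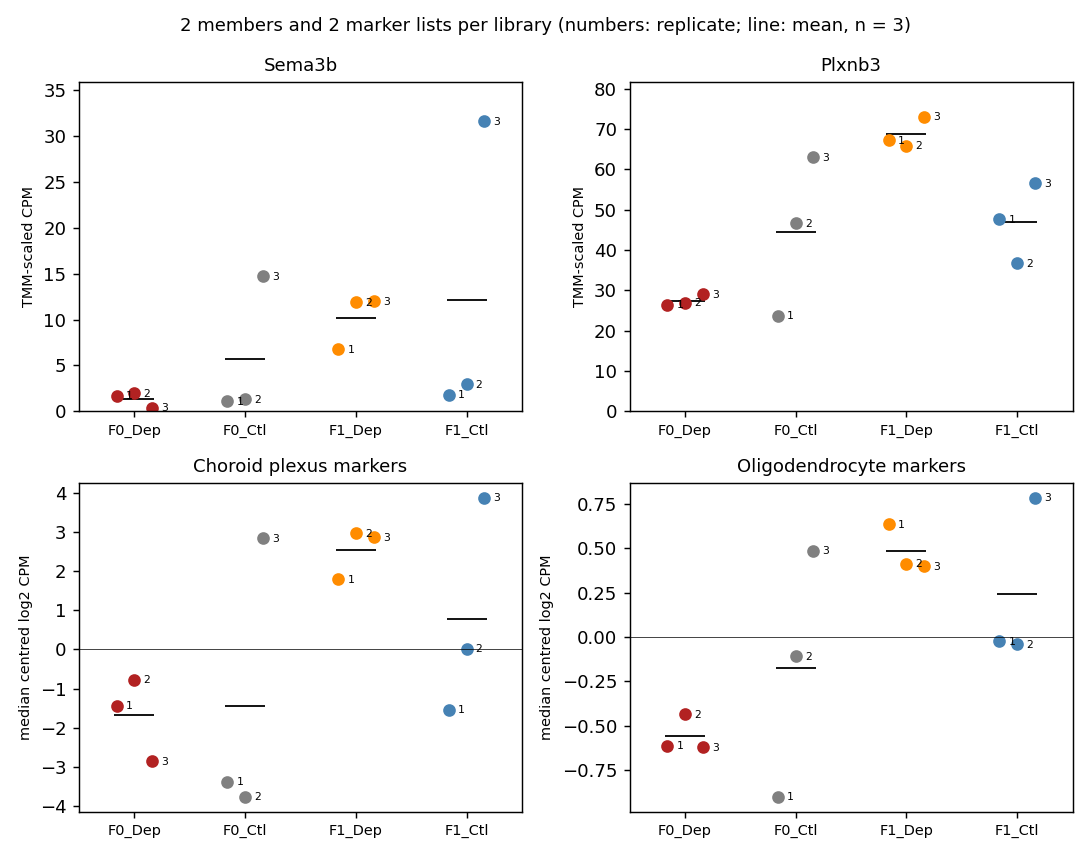
Top, TMM-scaled CPM of Sema3b and Plxnb3 in each library; bottom, the level of 12 choroid plexus and 9 oligodendrocyte markers (median log2 CPM after centring each gene on its mean over 12 libraries). Points are mice with their replicate numbers and lines are means of 3; the libraries high in choroid plexus markers, such as F1_Ctl 3 at 3.87, are those with high Sema3b.

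Of the 13 semaphorins held at the membrane, 9 had a log2 fold change above 0 in F0 and 9 in F1, with Sema5a the one that passed. Sema7a, the family's most abundant member per length and a ligand of Plxnc1, had 158, 170.0 and 175 CPM in F0_Dep libraries, against 147, 149 and 157 in F0_Ctl libraries, a log2 fold change of 0.15 that did not pass (edgeR adjusted p = 0.554). Its F1 libraries overlapped, with 144, 141 and 153 CPM in F1_Dep libraries, against 179, 141 and 114 in F1_Ctl libraries. Sema4a, a B- and D-type plexin ligand chosen after its values were seen, had 57.2, 34.3 and 33.1 CPM in F1_Dep libraries, against 26.2, 22.3 and 19 in F1_Ctl libraries. F1_Dep 1 was far above the other F1_Dep libraries, and the log2 fold change of 0.88 ± 0.19 (SE; edgeR adjusted p = 0.0798) did not pass.

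Neuropilins and plexins form the semaphorin receptors. Nrp2, the receptor of Sema3f, had 81.6, 94.3 and 106 CPM in F0_Dep libraries, against 56.2, 60.1 and 70.5 in F0_Ctl libraries, without overlap, and a log2 fold change of 0.59 ± 0.19 (SE; edgeR adjusted p = 0.127). In F1 it had 40.8, 63.9 and 56.3 CPM in F1_Dep libraries, against 89.2, 67.7 and 56.5 in F1_Ctl libraries, at -0.41 ± 0.19 (SE; edgeR adjusted p = 0.341). Of the 9 plexins none passed; 5 were above 0 in F0, with a median of 0.06, and 8 in F1, with a median of 0.33. Plxna4, a partner of neuropilins and a receptor of class 6 semaphorins, had 346, 342 and 368 CPM in F0_Dep libraries, against 197, 258 and 201 in F0_Ctl libraries. The groups were separate, and its log2 fold change was 0.69 ± 0.19 (SE; edgeR adjusted p = 0.0994). The offspring had 141, 214 and 207 CPM in F1_Dep libraries, against 295, 246 and 177 in F1_Ctl libraries, with F1_Dep 1 lowest. Plxna1 had 223, 256 and 228 CPM in F0_Dep libraries, against 158, 188 and 135 in F0_Ctl libraries, without overlap, and 166, 208 and 237 CPM in F1_Dep libraries, against 161, 173 and 109 in F1_Ctl libraries. Plxnc1, the receptor of Sema7a, had the smallest p among plexins in F1, with 44.9, 39.1 and 41.7 CPM in F1_Dep libraries, against 33.5, 34.4 and 26.9 in F1_Ctl libraries, a log2 fold change of 0.41 ± 0.14 (SE; edgeR adjusted p = 0.204). In F0 it had 34.6, 41 and 41.9 CPM in F0_Dep libraries, against 25.7, 35.8 and 32.6 in F0_Ctl libraries.

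The netrin group held 5 members, none of which passed. Ntng2, a lipid-anchored netrin relative that binds a postsynaptic adhesion protein, had 26.2, 40.9 and 32.1 CPM in F1_Dep libraries, against 58.9, 51.7 and 41.4 in F1_Ctl libraries. F1_Dep 1 was lowest, the groups did not overlap, and the log2 fold change was -0.61 ± 0.16 (SE; edgeR adjusted p = 0.117). In F0 its values overlapped, with 60.4, 52.9 and 59.4 CPM in F0_Dep libraries, against 51.1, 56.6 and 56.2 in F0_Ctl libraries. Its paralog Ntng1, chosen after its values were seen, had 7.35, 19.3 and 19.3 CPM in F1_Dep libraries, against 41.4, 45.1 and 27.4 in F1_Ctl libraries and a log2 fold change of -1.31 ± 0.34 (SE; edgeR adjusted p = 0.117). Ntn5, near the minimum level, had 0.597, 0.887 and 0.654 CPM in F0_Dep libraries, against 1.53, 1.62 and 0.499 in F0_Ctl libraries, and 3.5, 1.59 and 1.58 CPM in F1_Dep libraries, against 0.308, 1.21 and 0.549 in F1_Ctl libraries. It had the smallest p of the group in F0, with a log2 fold change of -0.76 ± 0.57 (SE; edgeR adjusted p = 0.481). Among the Unc5 receptors, Unc5a had 161, 165 and 159.7 CPM in F0_Dep libraries, against 174, 152 and 118 in F0_Ctl libraries, and 102, 139 and 125 CPM in F1_Dep libraries, against 151, 133 and 104 in F1_Ctl libraries, overlapping in both. The F0 median of the 4 Unc5 receptors was 0.32 and the F1 median -0.24.

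All 3 Slits, secreted repellents, had log2 fold changes above 0 in F0, between 0.59 and 0.73, and none passed. Slit3, with the smallest p, had 81.3, 76 and 74.9 CPM in F0_Dep libraries, against 41.1, 62 and 37.1 in F0_Ctl libraries, at 0.73 ± 0.24 (SE; edgeR adjusted p = 0.144). In F1 it had 35.1, 53.9 and 58.1 CPM in F1_Dep libraries, against 52.4, 51.4 and 30.1 in F1_Ctl libraries, which overlapped. Slit1 had 334, 350.3 and 376 CPM in F0_Dep libraries, against 183, 257 and 265 in F0_Ctl libraries; its offspring libraries had 174, 241 and 249.9 CPM in F1_Dep libraries, against 314, 235 and 148 in F1_Ctl libraries. Slit2 had 33.6, 43 and 45 CPM in F0_Dep libraries, against 10.7, 22.9 and 45.9 in F0_Ctl libraries, where F0_Ctl 3 was the highest of the 6. The F1 values of Slit2 were 35.2, 28.9 and 27.5 CPM in F1_Dep libraries, against 41.9, 37 and 28.3 in F1_Ctl libraries, at -0.23 ± 0.37 (SE; edgeR adjusted p = 0.83).

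Of the 4 Robos, which receive Slits, Robo1 was nearest to the threshold. It had 84.9, 101 and 105 CPM in F0_Dep libraries, against 44.2, 49.3 and 64.3 in F0_Ctl libraries, without overlap, and a log2 fold change of 0.88 ± 0.18 (SE; edgeR adjusted p = 0.0514). In the offspring Robo1 had 61.4, 69 and 67.2 CPM in F1_Dep libraries, against 77.1, 76.8 and 49 in F1_Ctl libraries, with a change of -0.04 and F1_Ctl 3 the lowest of the 6. Robo2 had 141, 150.2 and 155 CPM in F0_Dep libraries, against 113, 122 and 92.2 in F0_Ctl libraries, again without overlap, and 97.4, 108 and 107 CPM in F1_Dep libraries, against 129.5, 114 and 93.7 in F1_Ctl libraries, with overlap. Robo3, a divergent member known from commissural axons, had 22, 38.4 and 33 CPM in F1_Dep libraries, against 106, 37.5 and 35.3 in F1_Ctl libraries. F1_Ctl 1 stood apart there, and without it the log2 fold change of -0.94 ± 0.37 (SE; edgeR adjusted p = 0.264) was -0.22. The F0 values of Robo3 were 67.9, 54.8 and 69 CPM in F0_Dep libraries, against 68.8, 104 and 75.3 in F0_Ctl libraries.

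The 7 ephrins had log2 fold changes between -0.51 and 0.08 in F0 and between -0.39 and 1.18 in F1, and none passed. Efnb1, a transmembrane ephrin, had 13, 13.4 and 11.2 CPM in F1_Dep libraries, against 8.57, 8.14 and 8.38 in F1_Ctl libraries, without overlap, and 0.58 ± 0.15 (SE; edgeR adjusted p = 0.117). In F0 it had 11.2, 11.7 and 11.1 CPM in F0_Dep libraries, against 13.1, 10.4 and 8.72 in F0_Ctl libraries. Efnb2, chosen after its values were seen, had 38.9, 25.2 and 27.1 CPM in F1_Dep libraries, against 12.4, 15.1 and 12.9 in F1_Ctl libraries, with F1_Dep 1 highest, at 1.18 ± 0.32 (SE; edgeR adjusted p = 0.132). Efnb3 had 132, 127 and 121 CPM in F0_Dep libraries, against 121, 133 and 143 in F0_Ctl libraries, and 153, 149.9 and 149 CPM in F1_Dep libraries, against 127, 127 and 165 in F1_Ctl libraries. Efna1, a lipid-anchored ephrin, had 3.69, 3.44 and 3.0 CPM in F0_Dep libraries, against 5.29, 3.61 and 5.49 in F0_Ctl libraries, at -0.51 ± 0.26 (SE; edgeR adjusted p = 0.303), and 3.39, 3.96 and 3.65 CPM in F1_Dep libraries, against 4.26, 3.41 and 6.74 in F1_Ctl libraries.

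All 8 EphA receptors had a log2 fold change above 0 in F0 (median 0.31) and 6 of 8 one below 0 in F1 (median -0.29), and none passed. Epha4 had 546, 612 and 611 CPM in F0_Dep libraries, against 460.3, 432 and 476 in F0_Ctl libraries. The groups were separate, at 0.37 ± 0.13 (SE; edgeR adjusted p = 0.168). In F1 it had 356, 427 and 409 CPM in F1_Dep libraries, against 582, 531 and 390.2 in F1_Ctl libraries, overlapping through F1_Ctl 3. Epha3 had the smallest p in F0, with 17.5, 19.9 and 18.4 CPM in F0_Dep libraries, against 16, 13 and 12.4 in F0_Ctl libraries and 0.43 ± 0.13 (SE; edgeR adjusted p = 0.125). Its F1 values were 12.4, 15 and 12.9 CPM in F1_Dep libraries, against 14, 17.3 and 14.9 in F1_Ctl libraries. Epha7 had 137, 237 and 225 CPM in F1_Dep libraries, against 333, 288 and 255 in F1_Ctl libraries, at -0.55 ± 0.19 (SE; edgeR adjusted p = 0.222). F1_Dep 1 was lowest, and without it the log2 fold change was -0.34. The F0 values of Epha7 overlapped, at 319, 323 and 333 CPM in F0_Dep libraries, against 357, 289.9 and 242 in F0_Ctl libraries.

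Of the 5 EphB receptors, Ephb2, which binds ephrin-Bs at synapses, had 45.3, 49.1 and 49.2 CPM in F0_Dep libraries, against 28.7, 33.2 and 38.5 in F0_Ctl libraries, without overlap, at 0.52 ± 0.19 (SE; edgeR adjusted p = 0.168). Its offspring values were 33.3, 36.7 and 35.5 CPM in F1_Dep libraries, against 44.4, 32.4 and 23 in F1_Ctl libraries. Ephb6, a receptor without kinase activity, had 122, 71.5 and 75 CPM in F1_Dep libraries, against 57.5, 61 and 53.8 in F1_Ctl libraries. F1_Dep 1 was far above the rest, and the log2 fold change of 0.64 ± 0.18 (SE; edgeR adjusted p = 0.14) was 0.35 without it. In F0, Ephb6 had 71.3, 69 and 59 CPM in F0_Dep libraries, against 65.5, 75 and 59 in F0_Ctl libraries.

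F1_Dep 1 was the library with the highest striatal markers, at a list level of 2.78, where the others lay between -0.83 and 0.47. It also held the highest value of 11 members and the lowest of 15. The 11 were Sema3a, Sema3f, Sema4a, Sema4c, Plxnc1, Plxnd1, Ntn5, Efnb2, Efna5, Ephb1 and Ephb6. The 11 striatal markers all had log2 fold changes above 0 in F1_Dep against F1_Ctl, with a median of 1.61, and summed to 288 to 1580 CPM in F1_Dep against 198 to 284 CPM in F1_Ctl. The 5 thalamic markers were all below 0, with a median of -0.49 and a summed level of 81.6 to 89.1 CPM in F1_Dep against 103 to 151 CPM in F1_Ctl. Interneuron markers summed to 668 to 738 CPM in F1_Dep against 581 to 617 CPM in F1_Ctl. The part of these cells in the members' values was not tested. Without F0_Ctl 3, F1_Ctl 3 and F1_Dep 1, 6 members passed in that comparison: Efnb2 (0.93), Plxnb2 (0.67), Sema3a (1.23) and Sema3b (2.33) were higher, and Ntng1 (-1.17) and Sema5a (-1.17) lower, beside 338 of all genes. After that omission the summed choroid plexus markers separated the groups, at 6411 and 6056 CPM in F1_Dep 2 and 3, against 436 and 1051 CPM in F1_Ctl 1 and 2. Oligodendrocyte sums then did so too, at 6238 and 6183 against 4456 and 4242 CPM. Meningeal sums did as well, at 173 and 168 against 48.3 and 60.1 CPM. Dentate granule cell, striatal, thalamic and interneuron sums stayed apart. The part of these cells in the 6 calls was not tested. Sema3b, at 2.33 there, had a log2 fold change of -0.25 with all libraries. In the interaction 12 members then passed, 3 higher and 9 lower, beside 487 of all genes. The part of the cells whose markers separated the groups in these 12 calls was not tested either. The 338 and 487 genes come from a fit that repeated the filter on low counts, so they are not shares of the main fit's genes.

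Offspring of depressed males were also set against normal F0 males, and offspring of normal males against the same F0_Ctl libraries, which these comparisons and the first one share. In F1_Dep against F0_Ctl, 0 of 67 members passed and 0.0% of all genes did. DESeq2 called 3 members and 392 genes there, and 11 members had an unadjusted p under 0.05, where 12.9% of all genes did. Sema5a was lower in every F1_Dep than in every F0_Ctl library, with a log2 fold change of -0.87 ± 0.16 (SE; edgeR adjusted p = 0.1). In F1_Ctl against F0_Ctl, 0 members and again 0.0% of all genes passed. DESeq2 called 0 members and 0 genes, while 7 members had an unadjusted p under 0.05, where 5.92% of all genes did. Unc5d was at 0.34 there and Nrp1 at 0.35, with an edgeR adjusted p of 0.750 for both.

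A further 67 genes of the pathway, its co-receptors, kinases, exchange factors and cytoskeletal effectors, were examined, of which 66 were tested. In F0, 0 passed by edgeR, where 0.495% of all genes did, and 11 by DESeq2, which called 1017 of all genes. At an unadjusted p under 0.05, 16 were higher and 2 lower, where the shares of all genes were 10.3% and 9.36%. Abl2, a kinase that acts on the actin cytoskeleton, had the smallest p, with 139.8, 162 and 164 CPM in F0_Dep libraries, against 85.9, 104 and 94.3 in F0_Ctl libraries. These groups did not overlap, and the log2 fold change was 0.71 ± 0.14 (SE; edgeR adjusted p = 0.0512). In F1, 0 passed by edgeR, where 0.167% of all genes did, and 4 by DESeq2, which called 531 of all genes. At an unadjusted p under 0.05, 13 were higher and 5 lower, where the shares of all genes were 6.32% and 8.53%. Tiam1, an exchange factor that activates Rac, had 44.9, 87.5 and 65.9 CPM in F1_Dep libraries, against 179, 139.9 and 114 in F1_Ctl libraries. All F1_Dep libraries were below all F1_Ctl libraries, F1_Dep 1 lowest, at -1.12 ± 0.24 (SE; edgeR adjusted p = 0.0794). Dentate granule cell markers summed to 165, 473 and 363 CPM in F1_Dep libraries, against 937, 680 and 695 in F1_Ctl libraries. The part of these cells in the Tiam1 values was not tested. The medians over the 66 genes were 0.09 in F0 and 0.06 in F1.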

How the data were processed

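RNA of 12 hippocampi was sequenced from libraries made with a stranded mRNA kit, per the labels' protocols. The authors deposited expected counts, which are estimated and can be fractional, for 12 libraries and FPKM values for 9; FPKM of F1_Ctl was not used here. HISAT2, Cufflinks 2.2.1 and mm10 are named per the submitters' processing notes. The sources used here do not say which tool made the counts or whether it used strand, so overlapping and antisense genes cannot be told apart. Unused sample columns numbered 0.

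Counts were rounded, 37 identifiers that shared a symbol with another were added to it, and 610 identifiers without a symbol held 0.579% of counts. Libraries were scaled by TMM, low genes removed by filterByExpr, and 16163 genes fitted over all 4 groups with edgeR 4.0.16 (R 4.3.3). A gene was called at a Benjamini-Hochberg adjusted p under 0.05 over all genes. Fits with libraries left out repeated the filter, so their number of genes tested can differ from 16163. CPM in the text is TMM-scaled, except in the members' minimum and in the summed and single marker values, which are scaled to library totals alone. The SE is the fold change divided by the square root of its F statistic, an approximation. FPKM was tested with limma 3.58.1 on log2(FPKM + 1), for genes with at least 1 FPKM in 3 libraries, a scale that understates changes of low genes. The test was also run on simulated counts. These held none of the differences in marker lists between libraries, so that run cannot show how the test behaves under them. Each group has 3 mice. Correlations of deviations between groups lay between -0.177 and 0.499 for same-numbered mice and between -0.501 and 0.434 for the others. The value of 0.499 was that of F0_Ctl 3 and F1_Ctl 3. Numbers were not used as pairs.

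Members, marker lists, the pathway list and alternatives (DESeq2 1.42.0, scalings, filters, omitted libraries) were chosen with earlier results of these data known. Values in every library are given for called members, and per family for the highest FPKM and the smallest p in both main comparisons; Sema3b, Plxnb3, Sema4a, Ntng1 and Efnb2 were added after their values were seen. Marker lists for interneurons, astrocytes, microglia, endothelium, meningeal fibroblasts and thalamus were also measured. With all libraries kept, the summed levels of the astrocyte, microglia and meningeal lists overlapped between the groups in F0 and in F1. No marker of the 6 lists passed in F0_Dep against F0_Ctl or in F1_Dep against F1_Ctl. Gene positions are from GENCODE M21 on GRCm38.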

Additional observations from a re-analysis of the deposited data

Results flagged for a closer look

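The change in F1_Dep against F1_Ctl differed from the change in F0_Dep against F0_Ctl for Sema5a, by the interaction term of edgeR's fit over all genes: the difference was -1.62 on the log2 scale (edgeR adjusted p = 0.0316), with F0_Dep above F0_Ctl in every library and F1_Dep below F1_Ctl in every library. The same test gave -1.21 for Unc5d (edgeR adjusted p = 0.0316), with the same separation of the libraries. All 10 dentate granule cell markers were below 0 in this interaction (median -1.43), and their part in either difference was not tested. Leaving out 1 library moved the difference between -1.77 and -1.43 for Sema5a and between -1.31 and -1.10 for Unc5d.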

How the results depend on the processing

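Counts of called genes depended on the libraries, the tool and the scaling. Of 645 recomputed values for named genes, 552 kept their direction and side of the threshold, 47 kept the direction but no longer passed, 40 passed only then, and 6 reversed; none of the 6 passed. The reversed ones were Nrp1 in F1_Dep against F1_Ctl (-0.12 without F1_Ctl 3, -0.08 without F1_Dep 2, a range of -0.12 to 0.17 over omitted libraries, and -0.054 without the 3 libraries that stood apart in markers) and Unc5d in F1_Dep against F0_Ctl (0.046, 0.076 and 0.046 in the 3 FPKM fits with limma). Leaving out 1 library gave 0 to 5 members and 5 to 477 genes in F0_Dep against F0_Ctl, 0 to 2 and 0 to 678 in F1_Dep against F1_Ctl, 0 to 2 and 0 to 32 in F1_Dep against F0_Ctl, 0 to 2 and 0 to 400 in F1_Ctl against F0_Ctl, and 0 to 6 and 0 to 184 in the interaction. In F0_Dep against F0_Ctl (2 members and 80 genes), DESeq2 called 11 and 1017, library totals alone 1 and 42, only those groups in the fit 0 and 23, and no filter 144 genes. FPKM called 14 and 2930, 14 and 2918 with a pseudocount of 0.1, and 8 and 1616 without a filter, and omitting the 3 libraries 12 and 512. In F1_Dep against F1_Ctl (1 and 27), DESeq2 called 9 and 531, no filter 2 and 79, only those groups 0 and 0, and the omission 6 and 338. In F1_Dep against F0_Ctl (0 and 0), DESeq2 called 3 and 392, no filter 1 and 20, the omission 6 and 629, RLE scaling 2 genes, and FPKM 2 and 37, 2 and 37, and 1 gene without a filter. F1_Ctl against F0_Ctl gave 23 genes under the omission. The interaction (2 and 11) gave 12 and 491 with DESeq2, 0 and 6 with library totals, 63 genes without a filter and 12 and 487 under the omission. The replicate block, tried although the numbers were not used as pairs, called 0 members and 12 genes in F0, 0 and 0 in F1, 1 gene in F1_Dep against F0_Ctl, and 0 and 4 in the interaction. The cause of these shifts was not tested. The values of Ntn5 and Epha2 rest on the fewest counts of the members, at 1.21 and 1.85 CPM.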
